A study of Apostichopus japonicus with 3 samples.

Results

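Proteasome transcripts were followed in the respiratory tree of the sea cucumber Apostichopus japonicus across 3 stages of summer dormancy. Members were the assembled transcripts (isotigs) whose best protein match names the proteasome, a proteasomal protein or the 26S protease. The search found 30 isotigs among 20991 with a read in any library. They carried 21 subunit names, and each subunit is called here by the name of its match, most often in the acorn worm Saccoglossus kowalevskii (11 isotigs) or the sea urchin Strongylocentrotus purpuratus (8 isotigs). With 2 of the 30, the match was in another sea cucumber, Holothuria glaberrima. Of the 30 isotigs, 24 reached 20 reads over the 3 libraries together and were compared, out of 10896 isotigs that did so.

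The proteasome is the large protease that degrades proteins tagged with ubiquitin in the cytosol and nucleus. Its 20S core is a barrel of stacked rings, with alpha subunits in the outer rings that gate the entry and beta subunits in the inner rings that carry the cutting sites. The 19S regulatory particle caps the barrel: a ring of ATPases unfolds the substrate and opens the gate, and the non-ATPase subunits hold the particle together, bind ubiquitin chains and remove them. Aestivation is the summer dormancy in which sea cucumbers stop feeding and lower their metabolic rate, and the respiratory tree is the branched organ off the hindgut through which they take up oxygen.

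The animals were sampled at non-aestivation, at deep aestivation and at arousal from aestivation, and each stage has 1 RNA-seq library. Respiratory trees of at least 15 individuals per stage went into the study, and nothing in the labels tells whether RNA was pooled before the library was made. No treatment, strain or age is given. With 1 library per stage there is no replicate check, no p-value is given, and each comparison is between libraries. The ratios carry exact 95% intervals that cover counting error only, because with 1 library per stage differences between animals or libraries are not measured. With no molecular identifiers, several reads may come from 1 molecule, and the intervals may then be too narrow even for counting error.

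Depth was even and shallow. The deposited counts summed to 0.941 M reads during non-aestivation, 0.887 M during deep aestivation and 0.963 M in arousal. Levels are in RPKM (reads per kilobase of isotig and per 1e6 mapped reads), and a single read on a 1 kb isotig equals 1.06, 1.13 and 1.04 RPKM in that order. An isotig was called lower or higher when log2(RPKM + 0.5) differed by 1 or more between 2 libraries (2-fold). The added 0.5 RPKM makes changes of rare transcripts look smaller. No defining marker of the respiratory tree was among the lists, so the tissue label itself was not checked.

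Proteasome transcripts were less abundant in deep aestivation than during non-aestivation for most of the subunits compared. Of the 24 isotigs compared, 17 were called lower and 0 higher, against 18.6% called lower and 13.1% called higher among all 10896 isotigs. Among the 5686 isotigs with a protein match, 24.2% were lower and 8.0% higher. The count depends on how the libraries are scaled: 15 of the 24 were called lower with TMM or with median-of-ratios factors. Relative to the median of isotigs with a protein match, 13 were. Every one of the 24 had a log2 ratio below 0, where 55.2% of all isotigs did; with TMM or median-of-ratios factors 23 were below 0, all but isotig03764 of alpha 6, and after centring on the median of isotigs with a protein match 21 were, all but isotig03764, non-ATPase 4 and isotig08953 of non-ATPase 2. The median log2 ratio of the 24 was -1.42, beside -0.12 for all isotigs and -0.36 for those with a match. All 17 intervals lay below a ratio of 1, a combination found in 15.0% of all isotigs, and counting intervals below 1 regardless of size there were 19, against 22.2%. Together the 30 isotigs took 699 reads or 0.0788% of the library in deep aestivation and 1621 reads or 0.172% in non-aestivation, a share 2.19-fold lower in deep aestivation (2.0 to 2.39). In a library made from whole tissue, fewer cells of a type and less RNA per cell cannot be told apart.

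Isotigs of like depth were called lower about as often as all isotigs with a match. Among isotigs with a protein match and as many reads as the members, 22 to 415 summed over the libraries, 24.3% of 4878 were called lower in deep aestivation. Without a minimum of reads, 20 of the 30 members were lower and 0 higher. The 24 members span more than 1 order of magnitude in level: from 6.52 to 109.7 RPKM in non-aestivation, with a median of 61.9, beside 28.4 RPKM for all isotigs compared. In deep aestivation their median was 22.4 RPKM, beside 25.97 for all isotigs, and in arousal it was 27.9, beside 25.2.

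**Figure D1:**
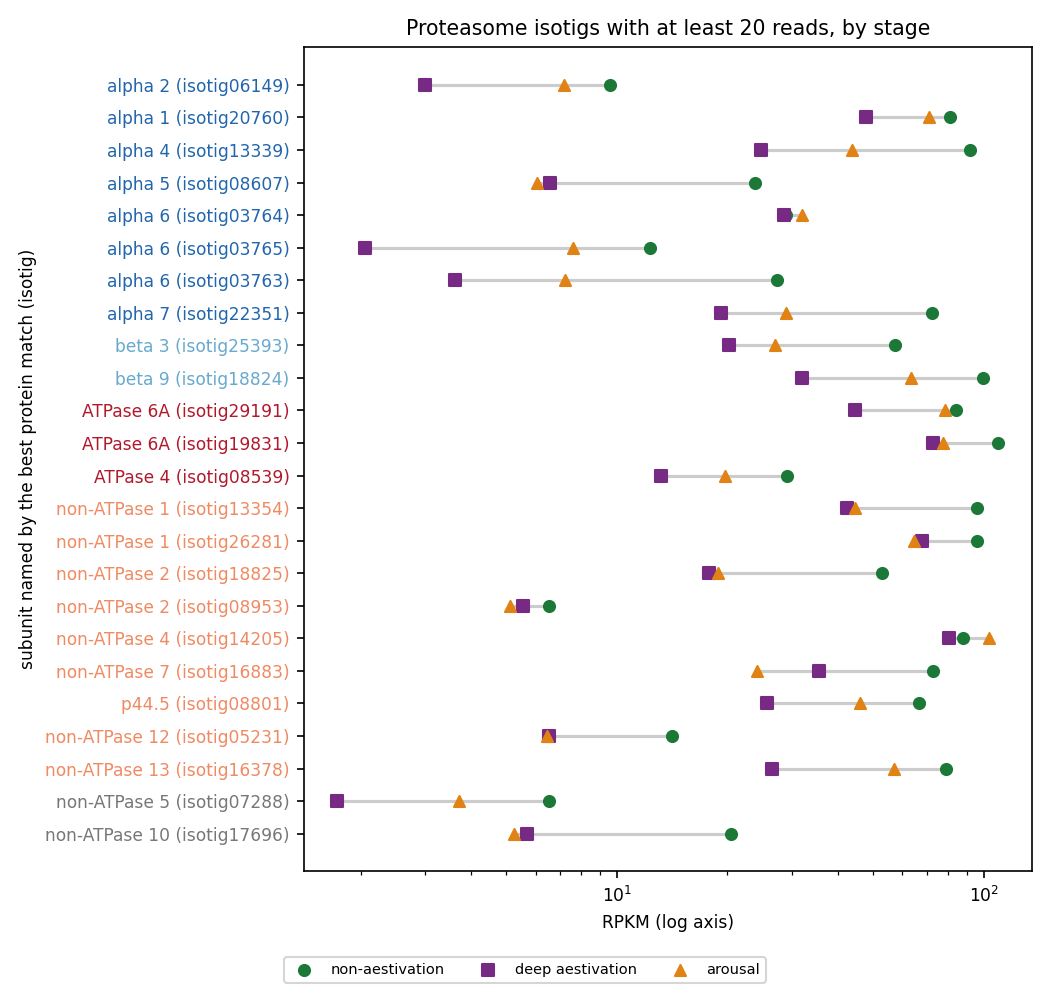
RPKM (log axis) of the 24 proteasome isotigs with at least 20 reads in non-aestivation (green circles), deep aestivation (purple squares) and arousal (orange triangles), 1 library each, with label colours for 20S alpha (dark blue), 20S beta (light blue), 19S ATPase (dark red), 19S non-ATPase (orange) and assembly factors (grey). The non-aestivation value is the highest for 22 of the 24 isotigs and the deep aestivation value the lowest for 18.

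Isotigs matching names of other cell types gave mixed differences between the libraries. Of all 20991 isotigs, 18915 had a read during non-aestivation, 17992 during deep aestivation and 18141 in arousal. Of 27 isotigs matching germ cell names, 26 had a read during non-aestivation, 17 during deep aestivation and 16 in arousal, with summed levels of 345.1, 150.1 and 123.4 RPKM in that order. Among them a bindin precursor, the sperm protein that attaches to the egg (isotig16157), had 61 reads during non-aestivation, 0 during deep aestivation and 0 in arousal. The germ cell isotig with most reads, spermatogenesis-associated protein 20 (isotig13603), had 31, 36 and 25 reads in that order. Of 11 germ cell isotigs compared, 3 (27.3%) were called lower and 0 higher in deep aestivation, beside 18.6% and 13.1% of all isotigs. Among isotigs with a protein match these shares were 24.2% and 8.0%. The median log2 ratio of the 11 germ cell isotigs was -0.28, and 4 of them were above 0. Isotigs of ciliated cells summed to 327.4 RPKM during non-aestivation, 253.9 during deep aestivation and 169.5 in arousal, with 36, 28 and 22 of 38 detected in that order. Of 13 ciliated cell isotigs compared, 1 (7.69%) was called lower and 2 (15.4%) higher in deep aestivation, with a median log2 ratio of -0.07. Coelomocyte isotigs, which mark the circulating immune cells, summed to 3410, 1109 and 882.5 RPKM in the same order, with 8, 10 and 9 of 11 detected. One of them, complement component 3-2 (isotig29329), held most of that sum with 3075, 572.4 and 559.8 RPKM, and the other 10 summed to 334.6, 536.8 and 322.7 RPKM, highest in deep aestivation. Of 6 coelomocyte isotigs compared, 2 were called lower and 2 higher in deep aestivation than during non-aestivation, with a median log2 ratio of 0.32. Muscle isotigs gave 1911, 1925 and 1587 RPKM, with 41, 39 and 36 of 43 detected. Of 25 muscle isotigs compared, 5 (20%) were called lower and 1 (4%) higher in deep aestivation, with a median log2 ratio of -0.33. The part of these cell types in the proteasome values was not tested.

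The alpha subunits form the outer rings of the core, and 6 of the 8 alpha isotigs compared were called lower in deep aestivation than during non-aestivation, with a median log2 ratio of -1.83. Alpha 4 (isotig13339, 2286 bases) had 197 reads or 91.5 RPKM during non-aestivation, 50 reads or 24.7 RPKM during deep aestivation and 96 reads or 43.6 RPKM in arousal. It was thus high in non-aestivation and low in deep aestivation, by 3.71-fold (2.71 to 5.17). Alpha 7 (isotig22351, 646 bases) had 44, 11 and 18 reads in the same stage order, and its 19.2 RPKM in deep aestivation was 3.77-fold lower (1.92 to 8.09) than the 72.4 RPKM in non-aestivation. Alpha 5 (isotig08607, 2236 bases) had 50, 13 and 13 reads, or 23.8, 6.55 and 6.04 RPKM. It was low in both later stages, 3.62-fold lower (1.94 to 7.27) in deep aestivation and 3.93-fold lower (2.11 to 7.90) in arousal than during non-aestivation.

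Alpha 2 was the rarest alpha name in non-aestivation and in deep aestivation, and alpha 1 stayed within the 2-fold limit in each comparison. Alpha 2 (isotig06149, 1882 bases) was rare, with 17 reads during non-aestivation, 5 during deep aestivation and 13 in arousal, or 9.60, 2.99 and 7.17 RPKM. Its rate was 3.20-fold lower in deep aestivation than during non-aestivation, with a wide interval (1.13 to 11.1). Alpha 1 (isotig20760, 734 bases) had 56, 31 and 50 reads, or 81.1, 47.6 and 70.7 RPKM. This was the mildest difference among alpha names with 1 isotig: 1.70-fold lower (1.08 to 2.73) in deep aestivation, within the 2-fold limit, with an interval that left out 1.

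Alpha 6 was represented by 4 isotigs of the same best match, and these differed from each other. Isotig03763 (1867 bases) had 48 reads during non-aestivation, 6 during deep aestivation and 13 in arousal, or 27.3, 3.62 and 7.23 RPKM, and was 7.54-fold lower (3.22 to 21.6) in deep aestivation than during non-aestivation. Isotig03765 (1639 bases) had 19, 3 and 12 reads, or 12.3, 2.06 and 7.60 RPKM, and was 5.97-fold lower (1.76 to 31.5). Isotig03764 (1622 bases) stayed level, with 44, 41 and 50 reads, or 28.8, 28.5 and 32.01 RPKM, a rate 1.01-fold lower (0.646 to 1.59) in deep aestivation, whose direction turns with TMM or median-of-ratios factors or after centring. The short isotig03766 had 5, 1 and 6 reads, too few to compare. Isotig03764 therefore took 80.4% of the alpha 6 reads in deep aestivation (exact binomial interval 66.9 to 90.2) and 37.9% in non-aestivation (29.1 to 47.4), with 61.7% in arousal (50.3 to 72.3). The deep aestivation and non-aestivation intervals do not overlap. Summed over the name, alpha 6 had 116, 51 and 81 reads in stage order, 2.14-fold lower (1.53 to 3.04) in deep aestivation. The other 3 isotigs together had 72, 10 and 31 reads, 6.79-fold lower (3.49 to 14.8) in deep aestivation than during non-aestivation and 2.38-fold lower (1.54 to 3.75) in arousal than during non-aestivation. Isotig03764 was set apart by these same reads, so its shares and the ratios of the other 3 follow in part from that split. They describe the isotigs and are no test of a difference among them. Because only reads with 1 mapping position were counted, reads from stretches that the 4 isotigs share could be dropped, and these values describe the stretches where they differ.

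**Figure D2:**
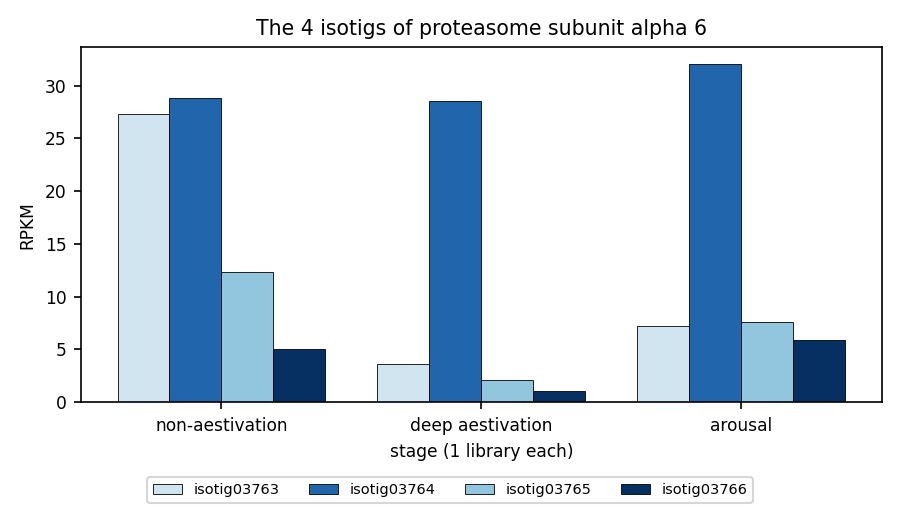
RPKM of the 4 isotigs matching proteasome subunit alpha 6 in each stage, 1 library and 1 bar per isotig and stage, with no error bars. Isotig03764 stays between 28.5 and 32.01 RPKM, while isotig03763 is at 3.62 RPKM in deep aestivation and 27.3 RPKM in non-aestivation.

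The beta subunits were matched by 2 isotigs, and both were called lower in deep aestivation than during non-aestivation. Beta 9 (isotig18824, 884 bases), in mammals a catalytic subunit of the immunoproteasome that replaces a constitutive one, had 83 reads or 99.7 RPKM during non-aestivation, 25 reads or 31.9 RPKM during deep aestivation and 54 reads or 63.4 RPKM in arousal. Its rate was 3.13-fold lower (1.98 to 5.11) in deep aestivation. Beta 3 (isotig25393, 502 bases), a structural subunit without a cutting site, had 27, 9 and 13 reads, or 57.1, 20.2 and 26.9 RPKM. It was 2.83-fold lower (1.29 to 6.83) in deep aestivation and 2.12-fold lower (1.06 to 4.49) in arousal than during non-aestivation. Whether the isotig named beta 9 is the immune form or its constitutive relative cannot be told from the name of the match.

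Of the 3 ATPase isotigs of the 19S particle compared, which belong to ATPase 6A and ATPase 4, 1 was called lower in deep aestivation than during non-aestivation, and their median log2 ratio was -0.91. With the 2 isotigs matching the ATPase Psmc6 from the list of other proteasome names described further on, 3 of 5 were lower. ATPase 6A, a motor subunit of the unfolding ring, had the highest level of all members in non-aestivation. Its longer isotig (isotig19831, 804 bases) had 83 reads or 109.7 RPKM during non-aestivation, 52 reads or 72.9 RPKM during deep aestivation and 60 reads or 77.5 RPKM in arousal. In deep aestivation it was 1.5-fold lower (1.05 to 2.17) than during non-aestivation, under the 2-fold limit. The shorter isotig (isotig29191, 279 bases) had 22, 11 and 21 reads, or 83.8, 44.4 and 78.2 RPKM, and its interval for deep aestivation against non-aestivation reached from 0.876 to 4.30-fold lower. ATPase 4 (isotig08539, 2481 bases), another ring subunit, had 68, 29 and 47 reads, or 29.1, 13.2 and 19.7 RPKM, and was 2.21-fold lower (1.41 to 3.54) in deep aestivation. A second ATPase 4 isotig had 2, 3 and 1 reads and was not compared. Numbering of the ATPases differs between nomenclatures, so the name of the match does not settle which ring subunit ATPase 4 is.

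Among the non-ATPase subunits, 6 of the 9 isotigs compared were called lower in deep aestivation than during non-aestivation, with a median log2 ratio of -1.05. Non-ATPase 13 (isotig16378, 1148 bases), a structural subunit of the lid, had 85 reads or 78.7 RPKM during non-aestivation, 27 reads or 26.5 RPKM during deep aestivation and 63 reads or 57.0 RPKM in arousal. It was lowest in deep aestivation, 2.97-fold lower (1.90 to 4.76) than during non-aestivation. The subunit named p44.5 (isotig08801, 2950 bases), a lid scaffold known in mammals as PSMD11, had 185, 67 and 131 reads, or 66.6, 25.6 and 46.1 RPKM, and was 2.6-fold lower (1.96 to 3.50) in deep aestivation. Non-ATPase 7 (isotig16883, 1081 bases), the partner of the enzyme that cuts ubiquitin chains off the substrate, had 74, 34 and 25 reads, or 72.7, 35.5 and 24.0 RPKM. It was 2.05-fold lower (1.35 to 3.18) in deep aestivation, and its arousal value was the lowest of the 3. Non-ATPase 12 (isotig05231, 2410 bases), another lid subunit, had 32, 14 and 15 reads, or 14.1, 6.55 and 6.46 RPKM, 2.15-fold lower (1.12 to 4.37) in deep aestivation, and a second isotig of this name had 0, 0 and 3 reads.

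The largest scaffold subunits of the base, non-ATPase 1 and non-ATPase 2, had 2 isotigs each, and within each name 1 isotig was called lower. For non-ATPase 1, isotig13354 (2262 bases) had 204 reads or 95.8 RPKM during non-aestivation, 85 reads or 42.4 RPKM during deep aestivation and 97 reads or 44.53 RPKM in arousal. It was 2.26-fold lower (1.75 to 2.95) in deep aestivation, and the arousal library stayed at the deep aestivation level. Its partner isotig26281 (466 bases) had 42, 28 and 29 reads, or 95.7, 67.7 and 64.6 RPKM, 1.41-fold lower (0.856 to 2.37) in deep aestivation, an interval that overlaps the one of the first isotig. For non-ATPase 2, isotig18825 (883 bases) had 44, 14 and 16 reads, or 52.9, 17.9 and 18.8 RPKM, and was 2.96-fold lower (1.59 to 5.85) in deep aestivation. The other isotig of that name, isotig08953, was rare in all 3 libraries with 10, 8 and 8 reads.

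Non-ATPase 4 was among the members that differed least. This subunit (isotig14205, 1637 bases), a receptor that binds ubiquitin chains on arriving substrates, had 135 reads or 87.6 RPKM during non-aestivation, 117 reads or 80.6 RPKM during deep aestivation and 163 reads or 103.4 RPKM in arousal. Its level in deep aestivation was 1.09-fold lower (0.843 to 1.41) than during non-aestivation, a direction that turns after centring. It thus had the highest level of any member in deep aestivation and in arousal, and was 1 of 2 compared members whose arousal value was above the non-aestivation value, the other being isotig03764 of alpha 6. Of the other 10 isotigs with at least 100 reads, 6 had intervals wholly below that of non-ATPase 4 in the same comparison, namely those of alpha 4, beta 9, ATPase 4, non-ATPase 1 isotig13354, p44.5 and non-ATPase 13. The intervals of the other 4, alpha 1, alpha 6 isotig03764, ATPase 6A isotig19831 and non-ATPase 7, overlapped with it. Since non-ATPase 4 is among the members that differed least, intervals lying below its own are in part built in. Whether it stands apart was not tested.

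Proteins that help to build the particle without staying in it were rare. Non-ATPase 10 (isotig17696, 988 bases), an assembly factor known in mammals as gankyrin, had 19, 5 and 5 reads in stage order, or 20.4, 5.70 and 5.26 RPKM, 3.58-fold lower (1.29 to 12.3) in deep aestivation and 3.89-fold lower (1.40 to 13.3) in arousal than during non-aestivation. Non-ATPase 5 (isotig07288, 1956 bases), an assembly factor of the base, had 12, 3 and 7 reads, or 6.52, 1.73 and 3.72 RPKM, 3.77-fold lower (1.02 to 20.8) in deep aestivation. Both were called lower, and both intervals were wide. Below 20 reads, a second non-ATPase 5 isotig had 6, 1 and 0 reads, proteasome assembly chaperone 1 (isotig20078) had 3, 6 and 7, and an isotig matching a proteasome-activating nucleotidase of the body louse (isotig11078) had 5, 0 and 1. With so few reads, no ratio is given for the 6 isotigs under the read minimum.

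**Figure D3:**
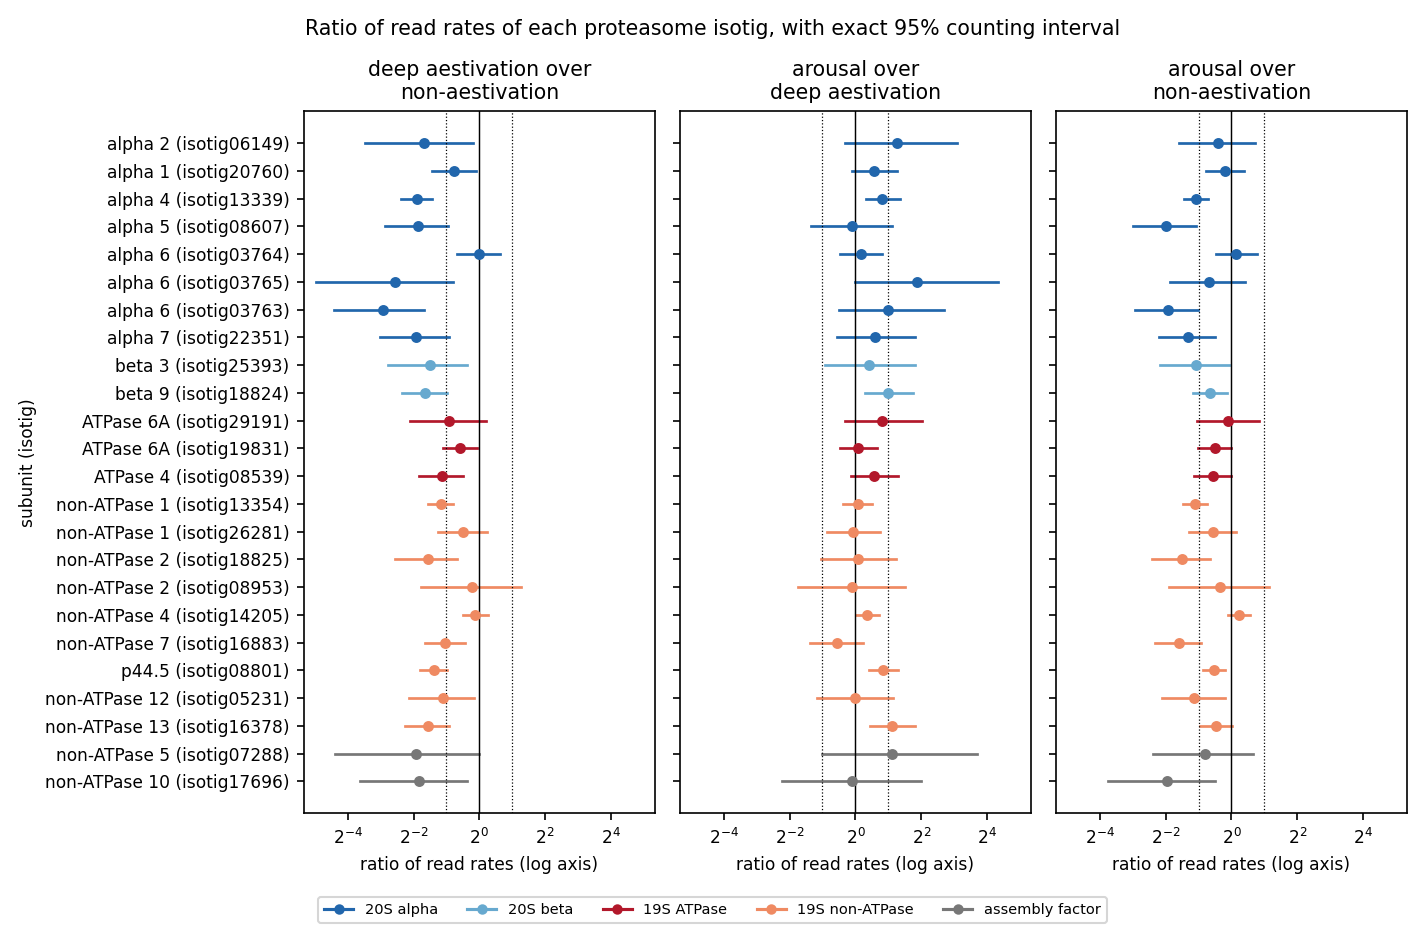
Ratio of read rates (log axis) of each of the 24 proteasome isotigs for deep aestivation over non-aestivation, arousal over deep aestivation and arousal over non-aestivation, 1 library per stage. Bars are exact 95% counting intervals, the solid line marks equal rates, dotted lines mark 2-fold, and colours give the class; in the left panel 19 intervals lie wholly below 1 and in the right panel 14.

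Summed by particle, the 20S core differed more than the 19S particle. The 11 core isotigs took 195 reads or 0.0220% of the library in deep aestivation (0.0190 to 0.0253) and 590 reads or 0.0627% in non-aestivation (0.0577 to 0.0679), 2.85-fold lower (2.42 to 3.37) in deep aestivation. The 14 isotigs of the 19S particle took 489 reads or 0.0551% in deep aestivation and 986 reads or 0.105% in non-aestivation, 1.90-fold lower (1.70 to 2.12). These 2 intervals do not overlap. Of the reads on both particles, the core took 28.5% in deep aestivation (25.2 to 32.1) and 37.4% in non-aestivation (35.04 to 39.9), a split that does not depend on how the libraries are scaled. In arousal it took 33.2% (30.3 to 36.2), between the other 2 stages. Non-ATPase 4, the member with most reads, bears on the size of this gap: without it the core took 34.4% in deep aestivation (30.5 to 38.5) and 40.9% in non-aestivation (38.4 to 43.5), intervals that meet. Without the 4 alpha 6 isotigs the core took 22.7% (19.5 to 26.2) in deep aestivation and 32.5% (30.1 to 34.9) in non-aestivation.

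**Figure D4:**
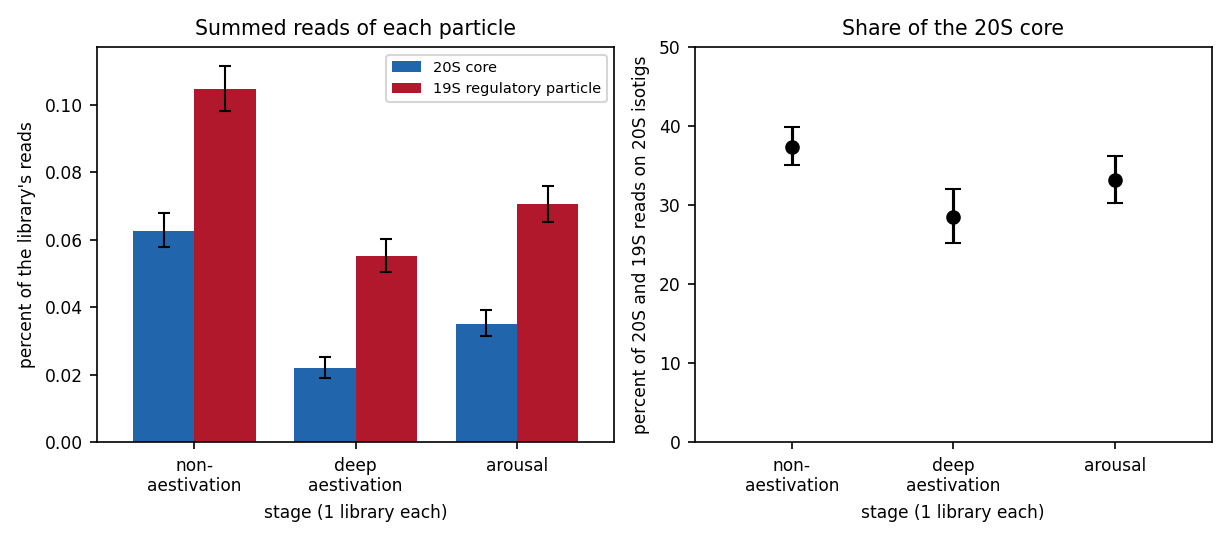
Left, percent of each library's reads on the 11 isotigs of the 20S core (blue) and the 14 isotigs of the 19S particle (red); right, percent of the reads of both particles that fell on the core, in each of the 3 stages. Error bars are exact 95% binomial intervals for counting error; the core share is 37.4% during non-aestivation, 28.5% during deep aestivation and 33.2% in arousal.

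In arousal, proteasome transcripts summed to a level between the other 2 stages. Against deep aestivation, 3 of the 24 isotigs were called higher and 0 lower, where 8.06% of all isotigs were higher and 8.93% lower, and 7.63% and 9.71% of those with a protein match. The count of calls is thus near the background. In 18 of the 24 the log2 ratio was above 0, beside 49.8% of all isotigs, and the median was 0.48, beside 0.00 for all isotigs (to 2 decimals) and -0.07 for those with a match. The 30 isotigs together had 1037 reads in arousal and 699 in deep aestivation, a rate 1.37-fold higher (1.24 to 1.51) in arousal. The core was 1.60-fold higher (1.33 to 1.91) and the 19S particle 1.28-fold higher (1.14 to 1.44) in arousal than in deep aestivation, intervals that overlap.

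The 3 isotigs called higher in arousal were non-ATPase 13, alpha 2 and the alpha 6 isotig03765. Non-ATPase 13 had 63 reads in arousal and 27 in deep aestivation, 2.15-fold higher (1.35 to 3.51). Alpha 2 was 2.40-fold higher (0.801 to 8.58) and isotig03765 was 3.68-fold higher (0.994 to 20.3), both with intervals that include 1. The criterion of 2-fold and an interval above 1 together was thus met by 1 member, beside 4.86% of all isotigs. Smaller differences with intervals above 1 were found for beta 9 at 1.99-fold (1.22 to 3.34), p44.5 at 1.80-fold (1.33 to 2.46), alpha 4 at 1.77-fold (1.24 to 2.54) and non-ATPase 4 at 1.28-fold (1.01 to 1.64). That makes 5 members of 24, beside 11.1% of all isotigs. At the other end, non-ATPase 1 isotig13354 at 1.05-fold (0.778 to 1.42) and ATPase 6A isotig19831 at 1.06-fold (0.721 to 1.57) were level between the 2 stages, within these intervals. Non-ATPase 7 had a ratio of 0.677 (0.387 to 1.17), the lowest of the 24 members compared.

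Against non-aestivation, 10 of the 24 isotigs were called lower in arousal and 0 higher. Among all isotigs 18.8% were lower and 12.5% higher, and among those with a protein match 25.6% and 6.68%. All 10 intervals lay below 1, a combination found in 15.4% of all isotigs, and regardless of size 14 intervals did, beside 22.0%. The median log2 ratio was -0.66, beside -0.13 for all isotigs and -0.40 for those with a match. The widest gaps among abundant members were those of non-ATPase 7 at 3.03-fold lower in arousal (1.90 to 4.97), non-ATPase 1 isotig13354 at 2.15-fold lower (1.68 to 2.77) and alpha 4 at 2.10-fold lower (1.64 to 2.71). Rarer members called lower were alpha 7 at 2.50-fold (1.42 to 4.6), non-ATPase 2 isotig18825 at 2.81-fold (1.56 to 5.34), the alpha 6 isotig03763 at 3.78-fold (2.01 to 7.60) and non-ATPase 12 at 2.18-fold (1.15 to 4.34), beside alpha 5, beta 3 and non-ATPase 10 given above. Alpha 1 with a ratio of 0.873 (0.584 to 1.3) and non-ATPase 13 with 0.724 (0.515 to 1.02) had intervals that include 1. Summed, the core was 1.79-fold lower (1.56 to 2.05) and the 19S particle 1.49-fold lower (1.35 to 1.64) in arousal than during non-aestivation. The count depends on how the libraries are scaled: 6 were called lower with TMM or with median-of-ratios factors, and 5 relative to the median of isotigs with a protein match. This comparison shares a library with each of the other 2, so the 3 are not independent.

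Non-aestivation was highest, arousal intermediate and deep aestivation lowest for 16 of the 24 isotigs, beside 23.0% of all isotigs and 28.1% of those with a protein match. With TMM or median-of-ratios factors or after centring, 15 had this order. Arousal was lowest and non-aestivation highest for 6 isotigs (25% of the 24), near the 21.7% of all isotigs and 28.8% of those with a match. They were those of alpha 5, non-ATPase 7, non-ATPase 10 and non-ATPase 12 with isotig26281 of non-ATPase 1 and isotig08953 of non-ATPase 2. The remaining 2, non-ATPase 4 and isotig03764 of alpha 6, were highest in arousal and lowest in deep aestivation. Deep aestivation was the lowest stage for 18 of 24, beside 33.4% of all isotigs, and non-aestivation the highest for 22 of 24, beside 44.6%. After centring, non-aestivation was highest for 18.

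Both well covered and poorly covered isotigs were called lower. Of the 24 isotigs, 15 had at least 50% of their bases covered in 1 library or more (63.2% to 97.1% in the best covered library), and 10 of these were called lower in deep aestivation than during non-aestivation. The other 9, covered over 8.98% to 43.1%, included 7 called lower. All 4 alpha 6 isotigs, alpha 2, alpha 5, ATPase 4, non-ATPase 12, non-ATPase 5 and 1 isotig of non-ATPase 2 are in the less covered group or below the read minimum, so their RPKM values rest on part of the isotig.

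Proteasome isotigs named in other ways were also lower in deep aestivation. A further 13 isotigs carried a proteasome gene symbol in their match or a proteasome gene ontology component and were not among the 30, a list chosen after the annotation was read. A gene ontology component does not make each of them a proteasome subunit: isotig23932, with 3, 1 and 1 reads, matched insulin-degrading enzyme. In deep aestivation against non-aestivation, 7 of the list's 9 isotigs with at least 20 reads were called lower and 0 higher. Among all isotigs 18.6% were lower and 13.1% higher. The median log2 ratio of the 9 was -1.21. The one with most reads, an unnamed protein annotated to the proteasome complex (isotig15357), had 191, 83 and 134 reads in stage order, 2.17-fold lower (1.67 to 2.84) in deep aestivation. PSMD3 (isotig14371), a structural subunit of the lid, had 144 reads or 96.5 RPKM during non-aestivation, 42 reads or 29.9 RPKM during deep aestivation and 63 reads or 41.2 RPKM in arousal, 3.23-fold lower (2.28 to 4.67) in deep aestivation. Psmc6, an ATPase of the base, was matched by isotig21257 with 55, 19 and 27 reads, 2.73-fold lower (1.59 to 4.87), and by isotig07629 with 41, 16 and 38 reads, 2.42-fold lower (1.33 to 4.61). Psmc6 isotig07629 was 2.19-fold higher (1.19 to 4.20) in arousal than in deep aestivation. An unnamed isotig annotated to the core complex (isotig04387) had 149, 60 and 87 reads, 2.34-fold lower (1.72 to 3.21) in deep aestivation. Summed over the 13, the list was 2.44-fold lower (2.12 to 2.82) in deep aestivation than during non-aestivation and 1.52-fold higher (1.31 to 1.77) in arousal than in deep aestivation.

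The ubiquitin list holds ubiquitin, the enzymes that attach it to substrates and the proteases that remove it. Of 49 isotigs of this list compared, 12 (24.5%) were called lower and 1 higher in deep aestivation than during non-aestivation, near the 24.2% of isotigs with a protein match that were lower, with a median log2 ratio of -0.34. The difference of this list from the proteasome was not tested. The fusion of ubiquitin with ribosomal protein RPS27A (isotig01107), the most abundant of them, had 512, 485 and 632 reads in stage order, a ratio of 1.01 (0.886 to 1.14) for deep aestivation over non-aestivation. An isotig matching the ubiquitin-activating enzyme UBA1 (isotig15631) had 75, 15 and 27 reads, 4.71-fold lower (2.68 to 8.83) in deep aestivation. A short ubiquitin isotig (isotig28759, best match in a malaria parasite) was instead lowest in non-aestivation, with 15, 31 and 85 reads. In arousal it was 2.53-fold higher (1.66 to 3.94) than in deep aestivation. Arousal against deep aestivation had 5 isotigs of this list higher (10.2%) and 6 lower (12.2%), near the shares of all isotigs given above, and arousal against non-aestivation 1 higher and 19 lower (38.8%, beside 25.6% of isotigs with a match). Valosin-containing protein (isotig13297), the p97 ATPase that extracts ubiquitin-tagged proteins and passes them to the proteasome, had 552, 148 and 192 reads, or 247.1, 70.3 and 84.0 RPKM. It was 3.52-fold lower (2.93 to 4.24) in deep aestivation, with a ratio of 1.20 (0.959 to 1.49) for arousal over deep aestivation. It belongs to a list of 4 compared isotigs of p97 and its shuttle partners. Of these, 2 were called lower and 0 higher in deep aestivation than during non-aestivation, beside 18.6% and 13.1% of all isotigs. NPL4 (isotig14531) of that list had 57, 31 and 48 reads. In arousal against deep aestivation, 2 of the 4 (50%) were lower and 0 higher, beside 8.93% and 8.06% of all isotigs. These were isotig06129 and isotig28887, each with a log2 ratio of -1.20, and the median of the list was -0.47. No interval is given for these 2 isotigs, so their counting error is not shown. Summed over all 5 isotigs of the list, the rate went the other way. It was 1.09-fold higher in arousal (0.910 to 1.31), with 261 reads beside 220 in deep aestivation, an interval that includes 1. Valosin-containing protein held 192 and 148 of these reads. Isotig06129 had a log2 ratio of 0.41 for deep aestivation over non-aestivation.

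Other large protein complexes give a scale for these differences. Among all isotigs, 18.6% were called lower and 13.1% higher in deep aestivation than during non-aestivation. The cytosolic chaperonin, a ring that folds actin and tubulin, had 7 of 8 isotigs called lower and 0 higher in deep aestivation than during non-aestivation, with a median log2 ratio of -1.77 and a summed rate 3.26-fold lower (2.76 to 3.86). Its subunit 5 (isotig06097) had 189, 63 and 94 reads in stage order, its subunit 3 (isotig21115) 80, 16 and 25, and its subunit 8 (isotig04136) 126, 28 and 76. Translation initiation factor eIF3, whose lid-like body is built from related domains, had 7 of 12 lower and 0 higher, with a median of -1.24 and a summed rate 1.90-fold lower (1.67 to 2.17). Its subunit 7 (isotig13327) had 198, 124 and 169 reads, its subunit 8 (isotig21528) 54, 14 and 34, and its subunit M (isotig14598) 109, 40 and 54. The COP9 signalosome, the closest relative of the lid, was matched by 1 isotig (isotig19231) with 25, 18 and 19 reads. Cytoplasmic ribosomal proteins, with 61 isotigs, had 2 lower and 2 higher and a median of -0.32, with isotig10422 farthest out at 5.89. The lower level of proteasome isotigs in deep aestivation was thus shared with the chaperonin and eIF3, whose differences from the proteasome were not tested. In arousal against deep aestivation, the summed rate was 1.55-fold higher (1.29 to 1.87) for the chaperonin and 1.36-fold higher (1.18 to 1.56) for eIF3. It was 1.39-fold higher (1.38 to 1.41) for ribosomal proteins and 1.37-fold higher (1.24 to 1.51) for the 30 proteasome isotigs. The COP9 isotig had a ratio of 0.972 (0.483 to 1.96). The higher level in arousal was thus shared with the chaperonin, eIF3 and ribosomal proteins.

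**Figure D5:**
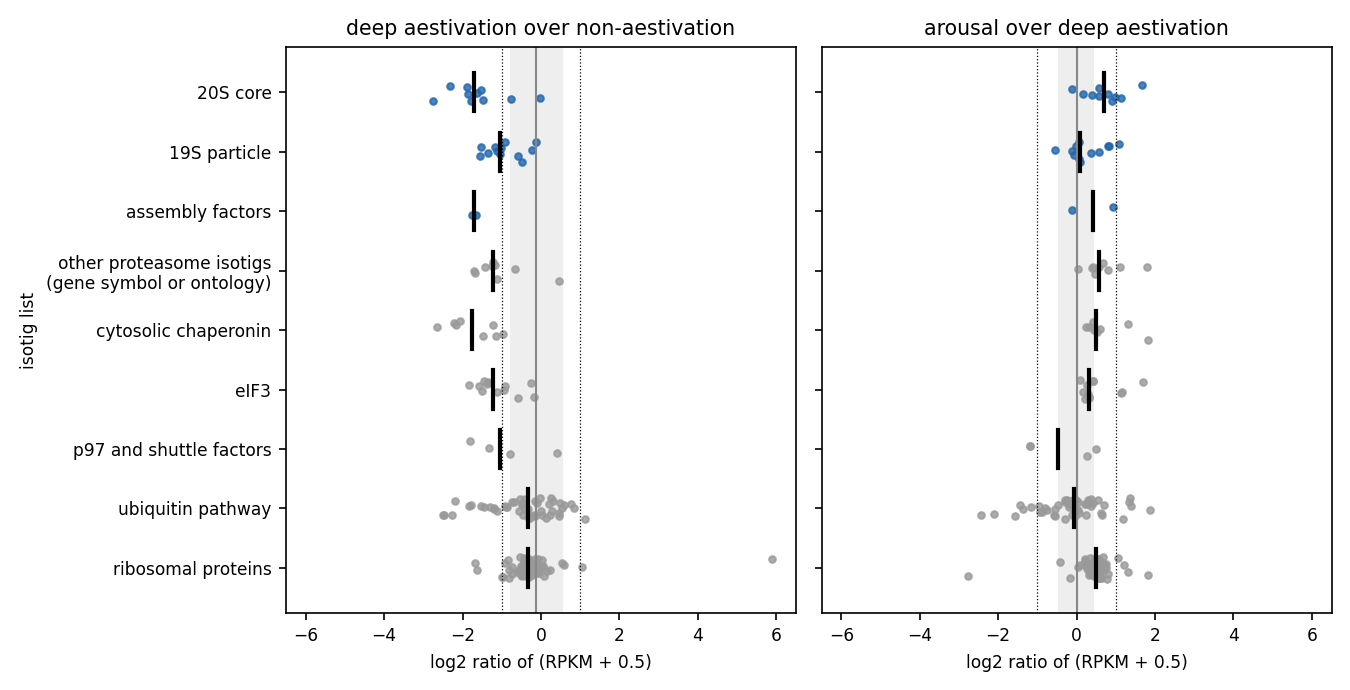
Log2 ratio of (RPKM + 0.5) of each isotig with at least 20 reads, for deep aestivation over non-aestivation and arousal over deep aestivation, by list: the 3 proteasome classes in blue, other lists in grey, with the median of each list as a black bar. The grey line and band are the median and interquartile range of all 10896 isotigs and dotted lines mark 2-fold; in the left panel the medians are -1.71 for the 20S core, -1.04 for the 19S particle and -0.32 for ribosomal proteins.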

How the data were processed

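Per the labels' protocols, poly(A) RNA was captured with oligo(dT), fragmented and reverse transcribed from random hexamers. Nothing there says that strand was kept, so reads of overlapping opposite transcripts may be mixed. CASAVA 1.5 is named in the submitters' processing notes. The aligner's name is not given in any source used here. The authors deposited, per the file headers, the count of uniquely mapped reads per isotig of a reference transcriptome assembly, the percent of its bases covered, and RPKM, that count per kilobase and per 1e6 uniquely mapped reads. RPKM recomputed from the counts matched within a relative tolerance of 1e-09. Unique counting can drop or split reads of near-identical isotigs. An isotig absent from a table was taken as 0 reads. There are no genome positions, and no sequences were used.

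Each comparison set 2 libraries side by side. Ratios of read rates have exact conditional binomial (Clopper-Pearson) 95% intervals and shares of reads exact binomial ones. The pseudocount was 0.5 RPKM. The members and lists were chosen with earlier results of these data known. Values were printed for each member with at least 100 reads or called in a comparison, and for the ubiquitin, p97, chaperonin, eIF3 and COP9 lists the member with most reads and those with the largest change in each comparison among members with at least 100 reads. Isotigs named in the other lists were chosen after their values were seen. Alternatives were pseudocounts of 0.1 and 1, no filter, at least 100 reads, TMM (edgeR 4.0.16) and median-of-ratios factors (DESeq2 1.42.0), library totals that leave out the 14 isotigs with most reads, centring on isotigs with a protein match, sums per protein name, an interval criterion and sums without the isotig with most reads. The calls and intervals were tested on simulated Poisson counts with known fold changes, the counting error that the intervals assume. The simulation held no variation between animals or libraries and no repeated reads of a molecule, so it cannot tell how the intervals do with these. Python 3.11.15, numpy 2.4.6, pandas 2.3.3, scipy 1.17.1, matplotlib 3.10.9 and R 4.3.3 were used.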

Additional observations from a re-analysis of the deposited data

How the results depend on the processing

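Over 141 values of the 3 comparisons under alternative settings, 110 stayed close to the reported value (within 1.5 times for a count, within the counting interval for a ratio, by less than the arm of the summed ratio's interval for a median) and 31 moved, and none of these counts, medians and summed ratios changed direction. The cause was not tested except where fewer isotigs were compared. No paired analysis was possible because each stage has 1 library. Scaling with TMM or median-of-ratios factors shifted the median log2 ratio of all isotigs by 0.11 and 0.12 for deep aestivation against non-aestivation and by 0.11 and 0.12 for arousal against non-aestivation, and centring on isotigs with a match by 0.36 and 0.40. For deep aestivation against non-aestivation, the 17 lower calls became 7 of 11 isotigs with at least 100 reads and 10 of 15 with at least 50% of bases covered, a setting added after the data were seen. Of the 24 isotigs, 15 were called lower with TMM, with median-of-ratios factors or with totals that leave out the 14 isotigs with most reads. After centring, 13 were called lower. The median log2 ratio became -1.11 with at least 100 reads and -1.06 after centring. The rate ratio of the core became 0.449 after centring (0.351 otherwise), that of the 19S particle 0.674 after centring and 0.464 without non-ATPase 4 (0.526 otherwise), and that of both 0.590 and 0.418 (0.461 otherwise). For arousal against deep aestivation, the 3 higher calls became 6, with 2 lower, without a read filter, and 1 with at least 100 reads, with the interval criterion or with at least 50% covered. For arousal against non-aestivation, 2 isotigs were higher without a filter. Lower calls became 3 with at least 100 reads, 6 with TMM, 6 with median-of-ratios and 5 after centring. The median became -0.53 with at least 100 reads, -0.54 with TMM, -0.54 with median-of-ratios, -0.25 after centring and -0.81 when isotigs of 1 name were summed. The rate ratio of the core became 0.741 after centring (0.560 otherwise) and that of the 19S particle 0.890 after centring and 0.593 without non-ATPase 4 (0.673 otherwise). For both particles it became 0.684 with TMM, 0.687 with median-of-ratios, 0.834 after centring and 0.579 without non-ATPase 4 (0.631 otherwise). The 11 isotigs with at least 100 reads gave 99 log2 ratios with TMM, median-of-ratios factors or centring. Of these, 12 crossed the 2-fold line and 5 changed sign. For deep aestivation against non-aestivation, isotig03764 of alpha 6 (-0.02) became 0.09 with TMM, 0.10 with median-of-ratios and 0.34 after centring. In that comparison non-ATPase 4 (isotig14205, -0.12) became 0.24 after centring. For arousal against non-aestivation, alpha 1 (isotig20760, -0.20) became 0.21 after centring. With totals that leave out the 14 isotigs with most reads, which are not among the 99, isotig03764 also changed sign for deep aestivation against non-aestivation. The core share without non-ATPase 4 or alpha 6 was also added after the data were seen. Depth limits the rare members most: non-ATPase 5 (isotig07288), with 22 reads in all, had an interval of 1.02 to 20.8-fold lower in deep aestivation.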
